A study of Mus musculus with 24 samples.

Results

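The microRNAs of the Dlk1-Dio3 region were examined in the mouse medial frontal cortex at postnatal day 28. Members were the mature microRNAs whose names carry one of the 44 numbers assigned to the cluster, with any letter and either arm. The deposited small RNA table listed 43 such microRNAs among 1821 (690 with a known mouse name and 1131 predicted), and 40 of them had reads in every library. No row carried the names miR-341, miR-370, miR-431, miR-541 or miR-654, which were not analysed here.

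Controls carried Emx1-cre, a driver of Cre recombinase in the excitatory neurons and part of the glia of the dorsal forebrain. The other genotype, Dnmt3l;Emx1-cre, came from crossing conditional Dnmt3l knock-in mice to Emx1-cre mice, so all animals carried the driver and only the second genotype could express the transgene. All mice were C57BL/6J. Each genotype had 3 males and 3 females, and RNA came from whole tissue that also holds cells in which the driver is silent. Small RNA libraries have names such as CMa or DFc (C for control, D for Dnmt3l, M for male, F for female), and longer-RNA libraries end in a number in place of the letter. The labels do not say whether a library came from 1 animal or a pool, and p-values measure only the spread between these libraries.

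The region is imprinted: the maternal chromosome expresses a row of non-coding RNAs, and the paternal one the protein-coding genes Dlk1, Rtl1 and Dio3. The non-coding RNAs are Meg3, the antisense transcript of Rtl1, Rian and Mirg, and the microRNAs are cut from them by Drosha and Dicer. DNA methylation of a control region upstream of Meg3 sets which chromosome is active. In brain the miR-379 to miR-410 group responds to neuronal activity through Mef2 factors, and miR-134 from this group represses Limk1 in dendrites and limits the size of spines. Dnmt3l is a cofactor of the de novo DNA methyltransferases with no catalytic activity of its own. It takes part in setting methylation imprints in germ cells.

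Hairpin positions in RefSeq (GRCm38.p6) were found for 41 of the 43 members, and they span chr12:109563692-109743795, or 180.1 kb. By the RNA they are cut from, 1 member belonged to Meg3 (miR-770), 8 lay between Meg3 and Rtl1 or antisense to Rtl1, none of those listed came from Rian, and 34 belonged to the miR-379 to miR-410 group assigned to Mirg. The deposited table places Mirg at chr12:109729764-109749460, and 12 members lay inside that span, from miR-382 to miR-410. RefSeq gave the mature sequence of 40 members. The sequences that follow belong to the members on which the results turn. The first set holds the members called with or without 1 doubtful library, other than miR-379-5p and miR-487b-3p, and capitals mark the seed (bases 2 to 8), which directs a microRNA to its targets.
miR-134-5p: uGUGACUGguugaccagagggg
miR-770-5p: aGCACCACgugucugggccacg
miR-323-3p: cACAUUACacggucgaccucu
miR-412-5p: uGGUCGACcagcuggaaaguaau
miR-758-3p: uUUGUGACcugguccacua
miR-380-3p: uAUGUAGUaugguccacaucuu
miR-494-3p: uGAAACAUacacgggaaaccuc
miR-667-3p: uGACACCUgccacccagcccaag
miR-496a-3p: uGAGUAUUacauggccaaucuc
miR-376b-3p: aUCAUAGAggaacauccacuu
miR-410-3p: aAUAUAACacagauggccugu
miR-679-5p: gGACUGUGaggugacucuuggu

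The second set holds the other most abundant members and the members compared with a called neighbour on the chromosome. It also holds those listed at 0 in some libraries, and miR-299a-3p and miR-299b-3p, which share a seed. For miR-487b-3p, miR-376c-3p and miR-485-5p no sequence is printed.
miR-434-3p: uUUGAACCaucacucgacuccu
miR-369-3p: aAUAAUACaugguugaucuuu
miR-136-3p: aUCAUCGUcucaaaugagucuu
miR-379-5p: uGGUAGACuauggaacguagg
miR-411-5p: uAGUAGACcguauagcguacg
miR-300-3p: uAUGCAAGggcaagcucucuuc
miR-381-3p: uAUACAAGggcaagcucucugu
miR-376a-3p: aUCGUAGAggaaaauccacgu
miR-382-5p: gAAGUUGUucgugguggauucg
miR-409-5p: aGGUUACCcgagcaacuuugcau
miR-127-3p: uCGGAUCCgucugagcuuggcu
miR-485-3p: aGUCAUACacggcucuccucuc
miR-299a-3p: uAUGUGGGacgguaaaccgcuu
miR-299b-3p: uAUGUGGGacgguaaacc

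The members differed in seed, and the seed AUGUGGG of miR-299a-3p and miR-299b-3p was the only one held by more than 1 of the 40 matched members. Their hairpins overlap on opposite strands, and the shorter miR-299b-3p begins with the same letters as miR-299a-3p, so reads may be shared between them and the level of miR-299b-3p is uncertain. Related members of separate seeds also occur, such as miR-376b-3p (UCAUAGA) beside miR-376a-3p (UCGUAGA) and miR-300-3p (AUGCAAG) beside miR-381-3p (AUACAAG).

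Depth was high for most members. Libraries held 17784876 to 19608955 microRNA reads in controls and 11397289 to 12378452 in Dnmt3l, and a member with reads in every library had from 7 (miR-299b-3p) to 250075 (miR-434-3p) reads in a library. Depth differed between the genotypes without overlap and cannot be told apart from genotype. Levels below are CPM, each library's counts divided by its total and scaled by TMM, the trimmed mean of M values, with factors from 0.89865 in DFa to 1.0842 in DMc. DFa, a Dnmt3l female, stood apart from DFb and DFc. Over 301 other known microRNAs with reads in all libraries, the SD of its log2 difference from the other 2 libraries of its group was 0.617, against 0.251 to 0.454 in the other 11 libraries. In the deposited tables DFa shares its column name with the longer-RNA library DF1, which also stood apart from DF2 and DF3, as in Snap25, a presynaptic protein gene of neurons, at 1879 CPM in DF1, 1418 to 1600 CPM in controls and 567 to 601 CPM in the other 5 Dnmt3l libraries. Dnmt3l RNA was 45.8 CPM in DF1, 20.7 to 27.0 CPM in the other 5 Dnmt3l libraries and at most 0.102 CPM (3 counts) in controls. Results are therefore given with and without DFa or DF1.

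Markers of other cells were compared in the small RNA libraries. Of the neuronal microRNAs, miR-124, miR-128 and miR-9 together made up 260669 to 310986 CPM in controls and 259095 to 339509 CPM in Dnmt3l. The liver microRNA miR-122 was at 1.05 to 2.98 CPM in all 12 libraries. Smooth muscle microRNAs (miR-143 and miR-145a, both detected) were at 13158 to 19189 CPM in controls, 17909 CPM in DFa and 6961 to 11537 CPM in the other Dnmt3l libraries. Muscle microRNAs (miR-1a, miR-133a and miR-206, all 3 detected) were at 520 to 727 CPM in controls, 792 CPM in DFa and 329 to 455 CPM in the other Dnmt3l libraries. The endothelial miR-126a was at 5665 to 6644 CPM in controls, 7364 CPM in DFa and 4532 to 6151 CPM in the others. Red-cell microRNAs (miR-144 and miR-486a, both detected) were at 138 to 231 CPM in controls, 156 CPM in DFa and 113 to 128 CPM in the others. A further planned marker of red cells, and the planned markers of blood and microglia, are not among these sums. For smooth muscle, muscle and red cells, DFa thus lay within or above the control range and the other 5 Dnmt3l libraries below it. Sums for oligodendrocytes (2312 to 3915 CPM in controls, 2299 CPM in DFa, 1986 to 2913 CPM in the others) did not show that order. Neither did choroid plexus miR-204 (772 to 1119, 698 and 701 to 1068 CPM, respectively). Epithelial and olfactory bulb microRNAs (95.7 to 384.7, 226.9 and 133.9 to 212.9 CPM) did not show it either. The part of vessel, muscle and blood cells in the differences below was not tested.

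The cluster was abundant in this tissue. Its 43 microRNAs took 7.63 ± 0.526% of all microRNA reads in controls and 7.38 ± 1.23% in Dnmt3l (SD, n = 6 each), a difference of −0.247 percentage points that is smaller than the spread between libraries. Without the 3 members listed at 0 in some libraries, the shares were 6.13 ± 0.502% and 6.97 ± 0.928%. The sign of the difference thus depends on those members. Among the 40 members with reads in every library, the highest mean levels were those of miR-434-3p (12245 CPM), miR-369-3p (9843 CPM), miR-136-3p (6208 CPM), miR-487b-3p (5900 CPM), miR-379-5p (4811 CPM) and miR-411-5p (3945 CPM). They were followed by miR-300-3p (2301 CPM), miR-410-3p (2253 CPM), miR-381-3p (1674 CPM) and miR-376b-3p (1641 CPM). In controls the ranges of miR-434-3p (10032 to 13113 CPM) and miR-369-3p (8216 to 11187 CPM) overlapped. The range of miR-487b-3p (3864 to 6093 CPM) overlapped those of miR-136-3p (6042 to 8080 CPM) and miR-379-5p (4243 to 5066 CPM), which did not overlap each other. The levels are reads per mature microRNA, and differences in cloning between sequences were not corrected. Over the 6 control libraries the coefficient of variation of a member had a median of 10.3% and ran from 3.76% for miR-411-5p to 46.5% for miR-299b-3p, the member with the fewest reads.

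The main comparison asked which cluster microRNAs differ between Dnmt3l and control cortex, averaged over both sexes. Of the 40 members with reads in all libraries, 1 rose and 0 fell (edgeR quasi-likelihood test with 4 group means, Benjamini-Hochberg adjusted p below 0.05 over all 679 microRNAs tested). Over all microRNAs tested 20 were called, or 2.95%, so the members' count of 1 in 40 is near the background. In a fit of only the 344 microRNAs with reads in every library, 12 were called, and 1 of them was a member. Unlike the 40, the 679 include microRNAs listed at 0 in some libraries. Shares over all microRNAs, here and below, are therefore not matched to the members, and no excess in the cluster can be read from them. The member that rose was miR-134-5p. Fitted log2 changes were above 0 for 24 members and below 0 for 16, with a median of 0.12 and a range from −0.37 to 0.62, while the median over all 679 was −0.16 and over the 344 microRNAs with reads in every library −0.01. At an unadjusted p below 0.05, 12 members passed. The share of all 679 microRNAs at that threshold is not given, here or for the unadjusted counts within and between the sexes below. No excess in the cluster can be read from such counts. With DESeq2, 8 members were called, 7 higher and 1 lower, against 70 of all 679 microRNAs (10.3%). In whole tissue, fewer cells of a type and less RNA per cell cannot be told apart.

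**Figure D1:**
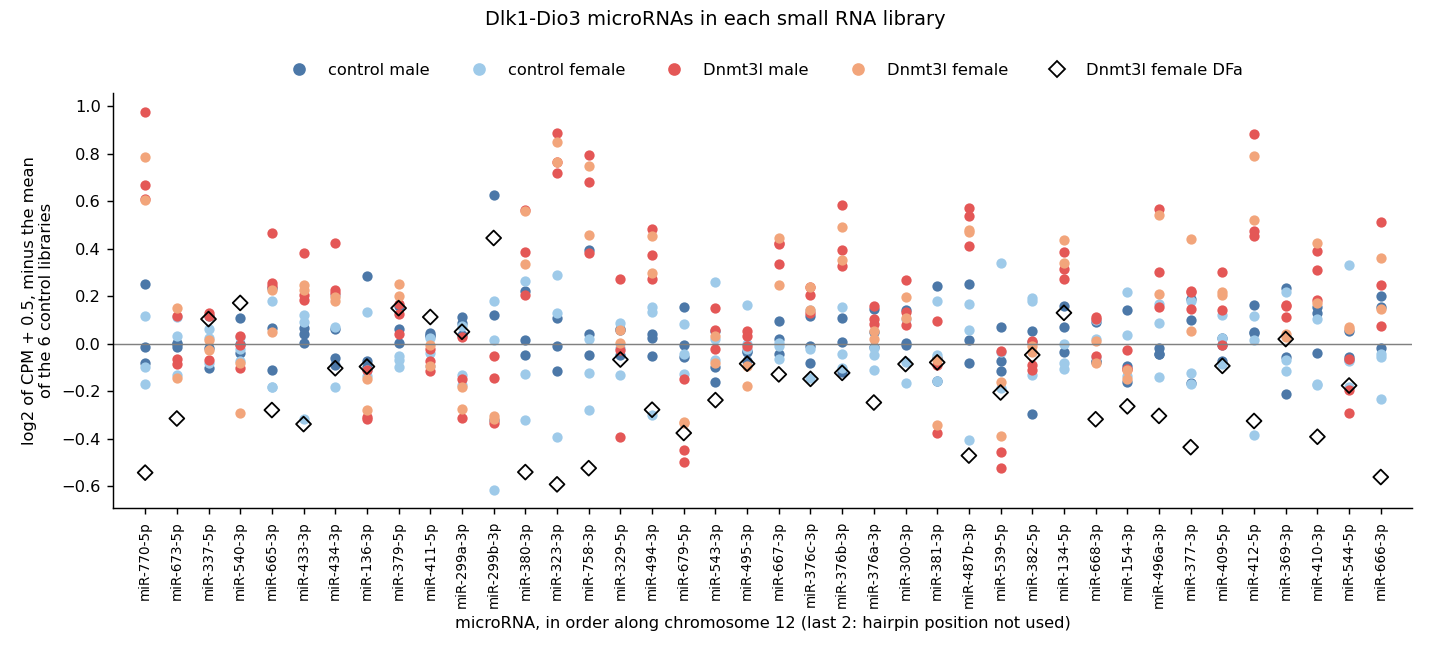
Level of each of the 40 members in each of the 12 small RNA libraries, as log2 of CPM + 0.5 minus the mean of the 6 control libraries, in order along chromosome 12 with miR-544-5p and miR-666-3p last (points are libraries, the open diamond is DFa). The red and orange points of miR-770-5p, miR-323-3p, miR-758-3p and miR-412-5p lie mostly above the controls, and DFa lies below 0 for these members.

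miR-134-5p (chr12:109734145-109734166, plus strand), the repressor of Limk1 in dendrites, was measured at 275, 314 and 295 CPM in control males and at 262, 281 and 266 CPM in control females. It was at 339, 368 and 351 CPM in Dnmt3l males and at 308, 381 and 356 CPM in Dnmt3l females. All Dnmt3l libraries lay above all controls with the exception of DFa (308 CPM), which lay just below CMb (314 CPM). The log2 change was 0.31 ± 0.07 (SE, edgeR adjusted p = 0.0409), with 0.26 in males and 0.37 in females. It was 0.34 ± 0.05 without DFa (edgeR adjusted p = 0.00365). The call is close to the threshold: it held under 11 of 21 alternatives, with adjusted p from 5.64e-07 (DESeq2) to 0.193. It ended with total counts as the only scaling, with no filter on low counts (adjusted p = 0.193) and when any 1 of the 6 control libraries, DMb or DFc was left out.

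Leaving out DFa changed the picture of the cluster. Without it 14 of 40 members were called, 13 higher and 1 lower, against 131 of 654 microRNAs tested (20.0%). The members that rose were miR-323-3p, miR-770-5p, miR-412-5p, miR-758-3p, miR-487b-3p, miR-376b-3p, miR-380-3p, miR-494-3p, miR-667-3p, miR-496a-3p, miR-134-5p, miR-410-3p and miR-379-5p, and miR-679-5p fell. Apart from miR-134-5p and the most abundant ones, these were named after their values were seen. Leaving out each library in turn was planned, but DFa was singled out from these same data. Many of the members that rose were low in DFa, so leaving it out raises their estimates and narrows their spread. Calls and adjusted p-values without DFa, here and below, are therefore a description and not a further test. The same holds for the fits without DF1. The median over the 40 members was 0.15, and the fitted change was above 0 for 25. Leaving out both DFa and the control female CFc, in which several of the same members were low, gave 12 members higher and 0 lower, against 96 of 644 (14.9%). That pair of libraries was chosen after these values were seen, so the 12 calls are a description and not a further test. No other single library raised the count, which was 0 or 1 without any one of the other 11.

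**Figure D2:**
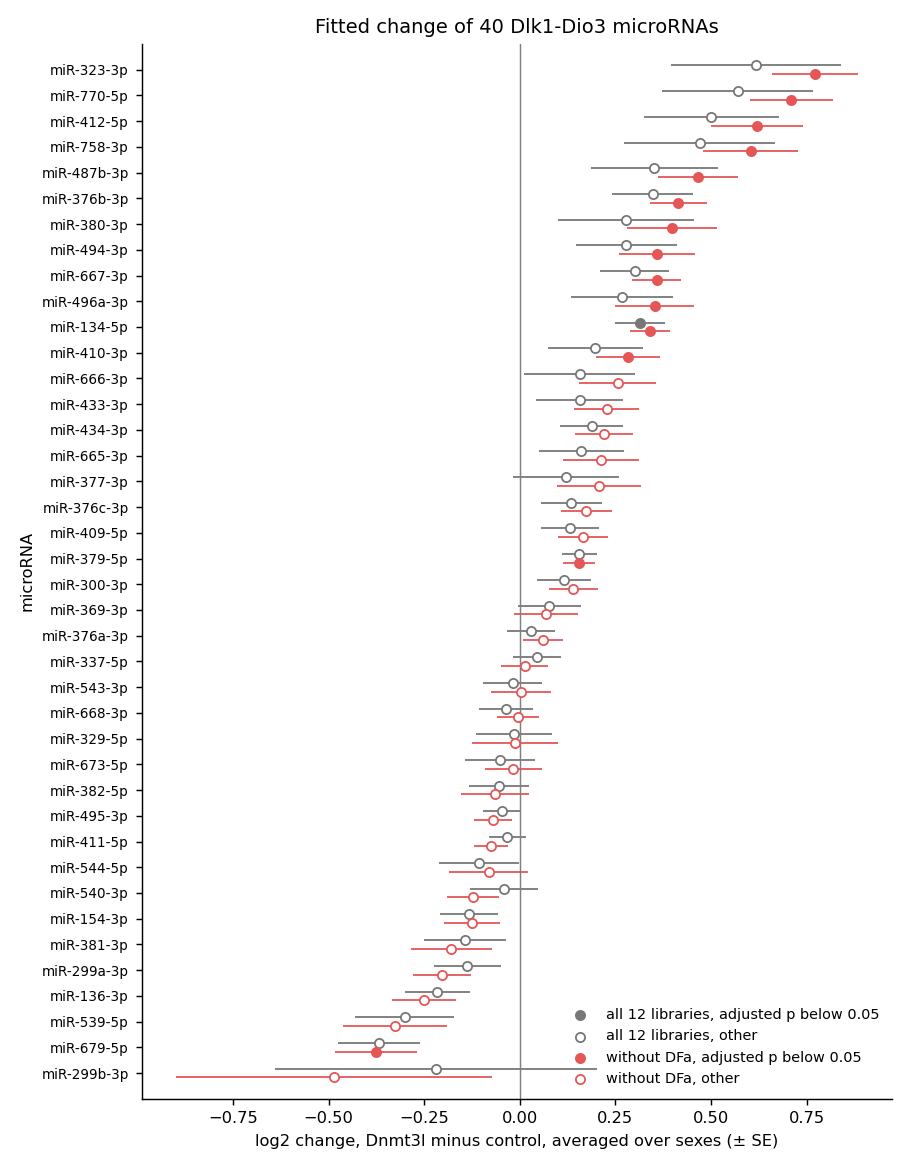
Fitted log2 change of the 40 members (Dnmt3l minus control, averaged over sexes, bars ± SE) with all 12 libraries in grey and without DFa in red, filled where the edgeR adjusted p was below 0.05. With all libraries only miR-134-5p is filled, and without DFa the filled points include miR-323-3p at 0.77 and miR-679-5p at −0.37.

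miR-323-3p (chr12:109712558-109712578) showed the largest fitted change. It was at 1162, 1071 and 995 CPM in control males, and at 1178, 1317 and 820 CPM in control females. In Dnmt3l it was at 1995, 1776 and 1835 CPM in males and at 715, 1833 and 1943 CPM in females. The 5 Dnmt3l libraries other than DFa lay above every control, and DFa (715 CPM) lay below every control. The log2 change was 0.62 ± 0.22 with all libraries (edgeR adjusted p = 0.160) and 0.77 ± 0.11 without DFa (edgeR adjusted p = 0.00325).

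miR-770-5p (chr12:109563710-109563731), cut from a Meg3 intron at the other end of the region, followed the same order. It was at 381, 400 and 481 CPM in control males, and at 377, 439 and 359 CPM in control females. In Dnmt3l it was at 796, 616 and 643 CPM in males and at 277, 615 and 696 CPM in females. Again DFa was the lowest of the 12 libraries and the other 5 Dnmt3l libraries were the highest. Its log2 change was 0.57 ± 0.20 (edgeR adjusted p = 0.149), and 0.71 ± 0.11 without DFa (edgeR adjusted p = 0.00359).

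miR-412-5p (chr12:109743303-109743325) lies near the far end of the cluster. In control males it was at 629, 580 and 581 CPM, and in control females at 568, 610 and 430.5 CPM. Dnmt3l males had 1038, 769 and 781 CPM, and Dnmt3l females 448, 807 and 973 CPM. DFa (448 CPM) and CFc (430.5 CPM) were the 2 lowest libraries. Its log2 change was 0.50 ± 0.18 (edgeR adjusted p = 0.157), and 0.62 ± 0.12 without DFa (edgeR adjusted p = 0.0106).

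miR-758-3p, next to miR-323 on the chromosome, ran from 44.1 to 70.6 CPM in controls (median 53.0) and was at 37.1 CPM in DFa and 69.9 to 93.2 CPM in the other Dnmt3l libraries. Its log2 change without DFa was 0.60 ± 0.12 (edgeR adjusted p = 0.0127). miR-487b-3p, among the most abundant members, ran from 3864 to 6093 CPM in controls and was at 3691 CPM in DFa and 6804 to 7613 CPM in the others. Its log2 change without DFa was 0.47 ± 0.10 (edgeR adjusted p = 0.0174), against 0.35 ± 0.17 with it (edgeR adjusted p = 0.214). Both were below the control range in DFa and, but for an overlap of miR-758-3p at 69.9 and 70.6 CPM, above it in the other 5.

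The other members that rose without DFa had smaller changes. miR-376b-3p, of the miR-376 family that ADAR enzymes edit in brain, ran from 1322 to 1599 CPM in controls and from 1805 to 2155 CPM in the 5 libraries (log2 change 0.41 ± 0.08, edgeR adjusted p = 0.00755). miR-667-3p ran from 195 to 218 CPM in controls and from 242 to 278 CPM in the 5 libraries (0.36 ± 0.06, edgeR adjusted p = 0.00702). Its groups did not overlap once DFa (187 CPM) was left out. The log2 changes of miR-380-3p, miR-494-3p, miR-496a-3p and miR-410-3p were 0.40, 0.36, 0.35 and 0.28 (edgeR adjusted p 0.0428, 0.0347, 0.0427 and 0.0436).

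miR-379-5p, the first microRNA of its group, differed from these in that DFa did not stand out. It was at 5066, 4742 and 4555 CPM in control males and at 4331, 4389 and 4243 CPM in control females. In Dnmt3l it was at 4672, 5107 and 4960 CPM in males and at 5041, 5219 and 5412 CPM in females. The 3 Dnmt3l females lay above the 3 control females, while the males overlapped. The log2 change averaged over sexes was 0.16 ± 0.05 with all libraries (edgeR adjusted p = 0.0937) and 0.15 ± 0.04 without DFa (edgeR adjusted p = 0.0320).

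**Figure D3:**
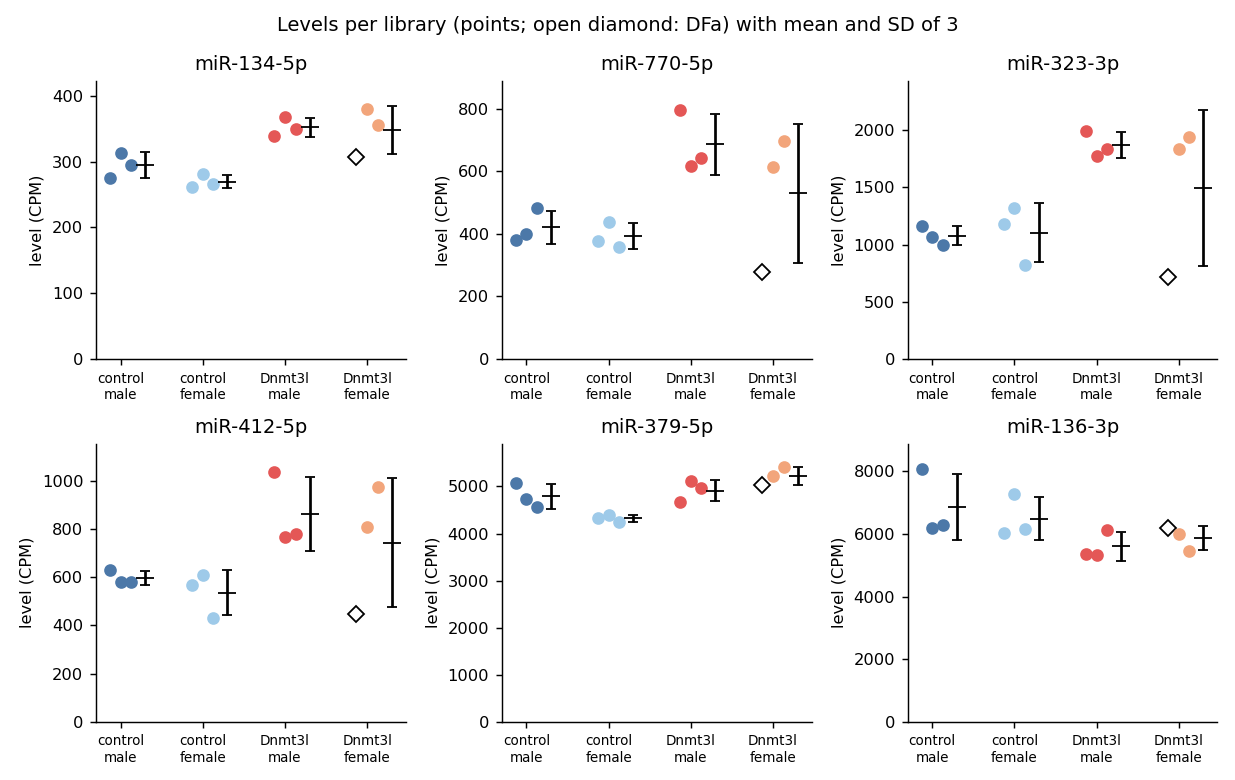
Levels in CPM of 6 members in the 12 libraries by group (points are libraries, the open diamond is DFa, bars are the mean ± SD of 3). DFa is at 277 CPM for miR-770-5p and 715 CPM for miR-323-3p, below the other Dnmt3l libraries, and within their range for miR-379-5p (5041 CPM).

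miR-679-5p was the member that separated the genotypes with all libraries kept. It ran from 13.6 to 16.7 CPM in controls and from 10.4 to 13.4 CPM in Dnmt3l, with 11.4 CPM in DFa, so that all 6 Dnmt3l libraries lay below all 6 controls. Its log2 change was −0.37 ± 0.11 (edgeR adjusted p = 0.0937), and edgeR without DFa and DESeq2 called it (adjusted p 0.0387 and 0.0319). Among all microRNAs tested, 11 of 679 (1.62%) were lower in Dnmt3l without overlap and 3 (0.442%) were higher, and among the 40 members 1 and 0. The count of 1 in 40 is near the share over all microRNAs. Without DFa, 10 members were higher without overlap, against 34 of 679 (5.01%), and 1 was lower, against 49 of 679 (7.22%). The 679 include microRNAs listed at 0 in some libraries, so these shares are not matched to the 40 members. The 10 were miR-770-5p, miR-323-3p, miR-376b-3p, miR-412-5p, miR-487b-3p, miR-433-3p, miR-494-3p, miR-134-5p, miR-410-3p and miR-667-3p.

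Several abundant members were not called averaged over sexes under any of the 21 alternatives. miR-434-3p, whose precursor lies antisense to Rtl1, ran from 10032 to 13113 CPM in controls and from 10601 to 15297 CPM in Dnmt3l (log2 change 0.19 ± 0.08, edgeR adjusted p = 0.189). miR-136-3p, from the same transcript, was at 8080, 6198 and 6299 CPM in control males, 6042, 7272 and 6148 CPM in control females, 5353, 5329 and 6131 CPM in Dnmt3l males and 6202, 5988 and 5457 CPM in Dnmt3l females. Its genotypes overlapped, and the log2 change was −0.22 ± 0.09 (edgeR adjusted p = 0.165, and 0.0666 without DFa). miR-369-3p ran from 8216 to 11187 CPM in controls and from 9635 to 10645 CPM in Dnmt3l (0.08 ± 0.08, edgeR adjusted p = 0.583). miR-411-5p ran from 3732 to 4110 and from 3682 to 4308 CPM (−0.03 ± 0.05, edgeR adjusted p = 0.725). Its estimate turned positive with upper-quartile scaling and with total counts only. miR-300-3p and miR-381-3p, which differ in seed, differed by 0.12 ± 0.07 and −0.14 ± 0.11 on the log2 scale (edgeR adjusted p 0.330 and 0.422).

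Grouped by host RNA, the members did not move as blocks. The 7 members of the Rtl1 antisense group with reads in all libraries had a median log2 change of 0.04 and a range from −0.22 (miR-136-3p) to 0.19 (miR-434-3p), and none was called with or without DFa. The 32 members of the miR-379 to miR-410 group had a median of 0.12 and a range from −0.37 to 0.62, with 19 above 0. The single Meg3 member, miR-770-5p, was at 0.57. The difference between host groups was not tested.

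Ratios between microRNAs of the cluster in 1 library do not depend on library scaling. These pairs were chosen after the values were seen, mostly as a called and an uncalled member, so the ratios are descriptions and their number supports nothing. For every read of miR-376a-3p, whose hairpin lies 241 bases from that of miR-376b, there were 2.60 to 3.22 reads of miR-376b-3p in controls and 3.12 to 3.87 in Dnmt3l, with DFa the only Dnmt3l library under the highest control. The ratio of miR-134-5p to miR-382-5p, 292 bases apart, was 0.173 to 0.255 in controls and 0.240 to 0.300 in the Dnmt3l libraries. Again DFa (0.240) was the only Dnmt3l library below the highest control.

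The ratio of miR-412-5p to miR-409-5p, whose hairpins are 52 bases apart, was 0.429 to 0.592 in controls, 0.448 in DFa and 0.651 to 0.791 in the other Dnmt3l libraries. The ratio of miR-323-3p to miR-379-5p was 0.193 to 0.300 in controls, 0.142 in DFa and 0.348 to 0.427 in the others. By contrast the ratio of miR-495-3p to miR-543-3p, another adjacent pair, was 1.60 to 1.88 in controls and, in the Dnmt3l libraries, 1.57 to 1.91.

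The members that were high in Dnmt3l males were the ones that were low in DFa. Over the 40 members, the log2 difference between Dnmt3l and control males and the log2 difference of DFa from DFb and DFc had Pearson r = −0.861 and Spearman rho = −0.862. The same measures over 301 other known microRNAs gave −0.257 and −0.468. The male difference uses only male libraries and the other only females, so the points share no library, but microRNAs of 1 transcript are not independent, and the values are a description. The 13 members that were lower in DFa by more than 0.5 on the log2 scale included miR-323-3p (−1.40), miR-770-5p (−1.24) and miR-758-3p (−1.13), and miR-299b-3p was higher by 0.76. Among the other known microRNAs 69 of 301 were lower by that amount. CFc showed a weaker form of the same order among controls (Pearson r = −0.612 and Spearman rho = −0.546 with the male difference, against −0.341 and −0.403 over the 301 other known microRNAs), with log2 differences from CFa and CFb of −0.60 for miR-323-3p and −0.52 for miR-487b-3p. The GC content of the mature sequence had r = 0.180 with the male difference and −0.135 with that of DFa over 38 members, and 0.303 and −0.133 over 241 other known microRNAs. The part of base composition in these differences was not tested.

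**Figure D4:**
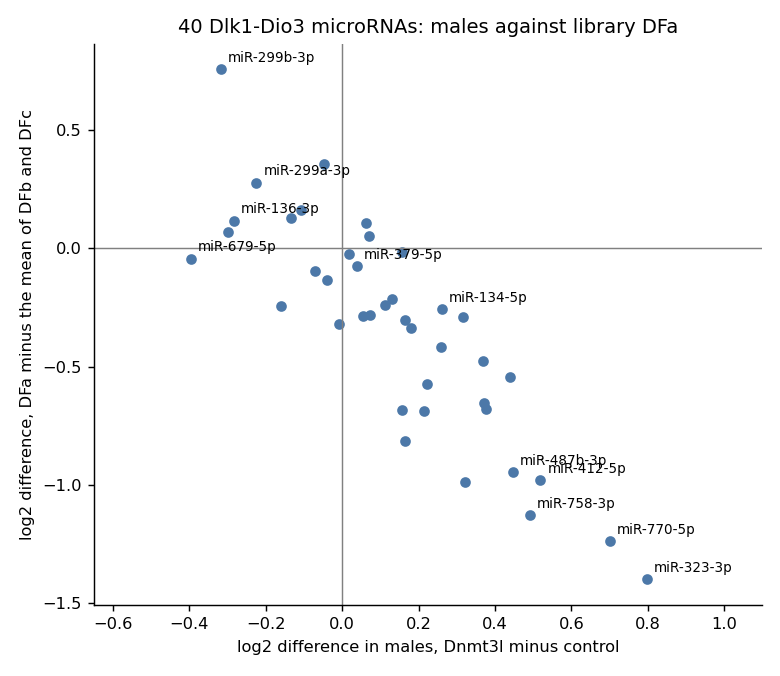
Each point is 1 of 40 members, with the log2 difference between Dnmt3l and control males on the x axis and the log2 difference of DFa from the mean of DFb and DFc on the y axis. Points fall from miR-299b-3p and miR-299a-3p at the upper left to miR-770-5p and miR-323-3p at the lower right (0.80 in males, −1.40 in DFa).

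Within males 0 of 40 members were called by edgeR, against 5 of 679 microRNAs (0.736%), and 8 members had an unadjusted p below 0.05. DESeq2 called 4 members in males (miR-376b-3p, miR-134-5p, miR-667-3p and miR-434-3p), against 49 of 679 (7.22%), so that share is near the background. Within females 0 were called by edgeR, against 2 of 679 (0.295%), and 3 had an unadjusted p below 0.05. DESeq2 called 2 members in females (miR-134-5p and miR-379-5p), against 21 of 679 (3.09%). Without DFa, edgeR called 5 members in males, against 46 of 654 (7.03%), and 4 in females, against 43 of 654 (6.57%). The 4 were miR-770-5p, miR-323-3p, miR-134-5p and miR-379-5p, all higher. The male libraries were the same in both fits, which differ in the shared estimate of the spread, the scaling and the microRNAs tested.

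The male and female effects were compared directly. None of the 40 members was called for the difference (edgeR, 2 at an unadjusted p below 0.05), with a background of 1 of 679 (0.147%), nor by DESeq2, with a background of 16 of 679 (2.36%). The 2 were miR-379-5p, with a male effect lower than the female one by a log2 difference of −0.24, and miR-495-3p, with a log2 difference of 0.24 (unadjusted p 0.0262 and 0.0317). Between control females and control males 0 members were called as well (edgeR, background 0.0% of 679), 1 had an unadjusted p below 0.05 and DESeq2 called 0. That member was miR-379-5p, with a log2 difference of −0.15 between control females and males.

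The members with a 0 are given apart. miR-127-3p, antisense to Rtl1 and perfectly complementary to it, was the most abundant member in controls, with 248750 to 310885 reads (13028 to 16302 CPM). In Dnmt3l it had 153590 reads in DMb (13446 CPM) and 130913 in DMc (10226 CPM), and it was listed at 0 in DMa and in all 3 females. Neighbouring miR-434-3p and miR-433-3p were present at 10601 CPM or more and 1035 CPM or more in the same 4 libraries. edgeR fitted an adjusted p of 0.0493 for miR-127-3p, a call that held under 7 of 20 alternatives with p up to 0.154 in the others, and no fold is given because a 0 in this table may mean that the name was not listed for a library.

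miR-485-5p was listed at 0 in CMa, CMb, all 3 Dnmt3l males, DFb and DFc, with 3282 reads in CMc, 3285, 3470 and 2895 in the control females and 1614 in DFa. miR-485-3p had 3282 reads in CMc, the number listed for miR-485-5p there, and 1479 in DFa, with 0 in the others. Within 1 group these rows thus held both 0 and high counts. Without these 3 members the cluster took 6.13 ± 0.502% of microRNA reads in controls and 6.97 ± 0.928% in Dnmt3l (SD, n = 6), so the sign of the difference in share depends on them. DFa was at 5.18%, and the other Dnmt3l libraries at 6.88% to 7.69%, above all controls (5.36% to 6.75%).

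The longer-RNA libraries hold the host transcripts and the genes that flank the cluster. Of 7 tested rows of the region, 2 rose and 0 fell in Dnmt3l (Begain and Dio3), in a table where 51.5% of 15786 mRNA genes and 0.494% of 12752 long non-coding transcripts were called. Begain (chr12:109032187-109068217), a partner of postsynaptic scaffolds at the edge of the region, was at 98.1, 94.2 and 109.0 CPM in control males and 110.6, 106.3 and 95.5 CPM in control females. It was at 160.8, 161.5 and 144.8 CPM in Dnmt3l males and 110.5, 127.6 and 154.8 CPM in Dnmt3l females, with DF1 within the control range. Begain's log2 difference was 0.48 ± 0.08 (edgeR adjusted p = 0.00068). Dio3 (chr12:110279068-110281097), which inactivates thyroid hormone, was low, at 1.60 to 2.69 CPM in controls and 2.37 to 5.51 CPM in Dnmt3l, and the groups overlapped (log2 change 0.62 ± 0.21, edgeR adjusted p = 0.0225). Dlk1 (chr12:109452823-109463336), a membrane protein related to Notch ligands, was at 3.06 to 10.1 CPM in controls and 2.21 (DF1) to 15.7 CPM in Dnmt3l (0.72 ± 0.36, edgeR adjusted p = 0.107).

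Mirg, the host RNA of the end of the miR-379 to miR-410 group, was measured by 2 assembled transcripts. The more abundant one (TCONS_00121064) was at 421, 413 and 360 CPM of long non-coding counts in control males and 345, 396 and 317 CPM in control females. It was at 538, 529 and 541 CPM in Dnmt3l males and 365, 486 and 521 CPM in Dnmt3l females. The 5 Dnmt3l libraries other than DF1 lay above all controls, and DF1 (365 CPM) lay among them. The log2 change was 0.40 ± 0.10 (edgeR adjusted p = 0.127), and 0.48 ± 0.08 without DF1 (edgeR adjusted p = 0.0189, where 1.41% of 12496 transcripts were called). The other Mirg transcript had a log2 change of 0.31 ± 0.11 (edgeR adjusted p = 0.314). The 2 transcripts of Rian, the neighbouring host of small nucleolar RNAs, had −0.08 ± 0.11 and −0.15 ± 0.10 (edgeR adjusted p 0.839 and 0.587). Without DF1, 4 rows of the region were called higher (Begain, Dio3, Dlk1 and 1 Mirg transcript), in a table where 63.1% of 15723 mRNA genes were called. Rtl1 had 0 to 18 counts per library and did not pass the filter, and Meg3 and Dio3os were not analysed here.

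**Figure D5:**
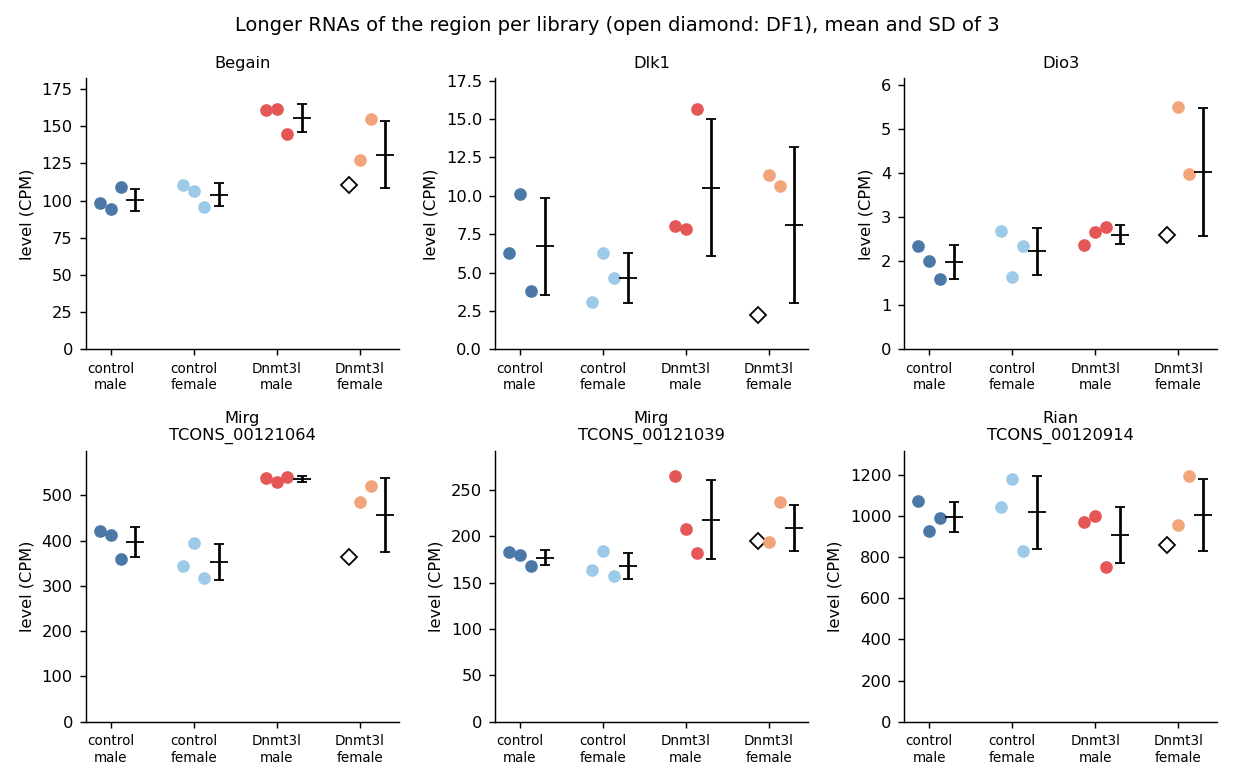
Levels in CPM of Begain, Dlk1, Dio3, 2 Mirg transcripts and 1 Rian transcript in the 12 longer-RNA libraries (points are libraries, the open diamond is DF1, bars are the mean ± SD of 3). For Begain, Dlk1 and the Mirg transcript TCONS_00121064, DF1 lies within or below the control range while the other 5 Dnmt3l libraries are mostly above it.

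In males alone Begain was the only row of the region called (43.1% of mRNA genes called), and in females none was (9.1% of mRNA genes called, and the sexes did not differ beyond the threshold in any of the 7 rows). Averaged over both sexes, 51.5% of mRNA genes were called. Of 18 tested genes of microRNA processing, 1 rose (Tnrc6a, a scaffold of the silencing complex, 0.20 ± 0.06, edgeR adjusted p = 0.00840) and 5 fell. They were Ran, which carries precursors out of the nucleus with exportin 5 (−0.87 ± 0.15, edgeR adjusted p = 0.000748), Prkra, a Dicer partner (−0.35), Adar, an RNA-editing enzyme (−0.18), Drosha, which cuts the primary transcript (−0.18), and Ago1, an argonaute (−0.16). Dicer1 was at 0.13 ± 0.06 (edgeR adjusted p = 0.0971). Without DF1 the counts for this list were 4 higher (Tnrc6a, Dgcr8, Dicer1 and Tarbp2) and 8 lower (the 5 named with Adarb1, Tnrc6b and Xpo5), with Dicer1 at 0.14 ± 0.05 (edgeR adjusted p = 0.0169), against 63.1% of all genes. Neither count for this list is read as an excess over all genes. With all libraries the list's median was −0.06, against 0.02 over all genes. In DF1 Ran was at 46.6 CPM, within the controls (45.9 to 53.8 CPM) and above the other 5 Dnmt3l libraries (19.7 to 27.0 CPM).

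Of 14 tested regulators of the region, Dnmt3l, the methyltransferase Dnmt3a and the imprint-binding factor Zfp57 rose, by 9.76, 0.26 and 0.41 on the log2 scale. Dnmt3l is the transgene that defines the groups, so its rise is given by the design. The edgeR adjusted p was 0.0276 for Dnmt3a and 0.0223 for Zfp57. Mef2c and Mef2d, activity-dependent transcription factors, Ctcf, an insulator protein, and Trim28, the corepressor bound by Zfp57, fell by 0.66, 0.26, 0.49 and 0.32 (edgeR adjusted p 0.00394, 0.0172, 0.00129 and 0.00205). Without DF1 Tet2 was called higher as well (0.15). Mef2c was at 708 to 977 CPM in controls, 923 CPM in DF1 and 437 to 555 CPM in the other Dnmt3l libraries, so that DF1 again lay among the controls. Among 4 tested known targets of the cluster or partners of miR-134, Creb1 fell by 0.47 (edgeR adjusted p = 0.00104), and Limk1 (−0.01 ± 0.08), Pum2 (−0.13 ± 0.07) and Sirt1 (−0.18 ± 0.12) were not called (edgeR adjusted p 0.948, 0.139 and 0.233). Without DF1, Pum2 and Sirt1 were called lower as well and Limk1 was not. Over all expressed genes 51.5% were called with all libraries and 63.1% without DF1, which are the backgrounds for these counts.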

How the data were processed

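The members and the gene lists were chosen with earlier results of these data known. Small RNA values are whole-number read counts per mature microRNA as deposited by the authors, although that table is named for another unit. Longer RNAs were deposited by the authors in 2 forms, expected counts and FPKM, per the file headers. The submitters' processing notes name cutadapt 1.9.1, HISAT2 2.0.1, HTSeq 0.6.1, bedtools 2.17.0 and GRCm38 without roles, and the sources used here do not give how microRNAs were counted. Small RNA columns were assigned to groups by name and not to single samples, with 0 columns unmatched.

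microRNAs with 1 or more counts in at least 3 of 12 libraries were tested with edgeR 4.0.16 (TMM, quasi-likelihood, two-sided, 8 residual degrees of freedom) in R 4.3.3, and calls needed a p below 0.05 after Benjamini-Hochberg adjustment. Expected counts were summed per gene and rounded, and genes with 0.5 FPKM (long non-coding transcripts 0.1 FPKM) in at least 3 libraries were tested. The 1774 transcripts with no gene ID held 0.533% to 0.601% of a library's counts and stayed out. Longer-RNA libraries held 22144970 to 32100277 mRNA counts and 1467252 to 1839502 long non-coding counts. The fits were also run on simulated counts, drawn with the same spread setting for every row and no library that stood apart. That run does not bear on how DFa or DF1 affects the calls. Members named by rule were the 10 with the highest mean level, those called, and those with a 0. Other named members, the neighbour ratios and the fit without DFa and CFc were chosen after the data were seen. So was the weight given to the fits without DFa or DF1. Alternatives were other scalings, DESeq2 1.42.0, limma 3.58.1 on log2(FPKM + 0.1), other filters, a replicate block and each library left out. Mature sequences and hairpin positions come from RefSeq (GRCm38.p6).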

Additional observations from a re-analysis of the deposited data

Results flagged for a closer look

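In 12 of 80 groups of 6 libraries, 1 library was separated from the nearest other by more, relative to the group's range, than Dixon's 95% critical value for 6, where chance gives about 1 in 20. The Dnmt3l female DFa was that library 9 times. It was the lowest of the 6 Dnmt3l libraries for miR-770-5p (277.1 CPM, next 614.7 CPM), miR-323-3p (714.8 CPM, next 1776 CPM), miR-487b-3p (3691 CPM, next 6804 CPM), miR-410-3p (1591 CPM, next 2349 CPM) and miR-433-3p (1035 CPM, next 1489 CPM). It was also the lowest for miR-494-3p (47.5 CPM, next 69.8 CPM), miR-376c-3p (363.6 CPM, next 440.9 CPM) and miR-376a-3p (423.2 CPM, next 509.6 CPM), and the highest for miR-299b-3p (1.31 CPM, next 0.781 CPM).

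The control female CFc was the lowest of the 6 controls for miR-433-3p (1049.9 CPM, next 1310.3 CPM) and miR-412-5p (430.5 CPM, next 568.1 CPM). The control female CFb was the highest for miR-495-3p (1204 CPM, next 1076 CPM). The values of DFa and CFc fall on microRNAs of 1 cluster and are not independent of each other.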

How the results depend on the processing

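Averaged over sexes, 1 of 40 members was called with all libraries, 3 with upper-quartile scaling, 0 with total counts only, 5 with no filter, 8 with DESeq2, 0 to 14 leaving out single libraries (14 without DFa) and 12 without DFa and CFc. In males the count of 0 became 4 with DESeq2 and with no filter, 0 to 5 leaving out single libraries and 8 without DFa and CFc. In females it became 2 with DESeq2, 0 to 4 leaving out single libraries and 2 without DFa and CFc. Over all microRNAs 20 were called with the settings of the report, 70 with DESeq2, 82 of 1821 with no filter, 12 with total counts only or with rows above 0 in all libraries, 10 with the replicate block and 5 to 131 leaving out single libraries. The replicate block gave 1 called member and a median of 0.113; same-numbered libraries correlated at −0.316 to 0.313 in their deviations, so the numbers were not taken as pairs. The median of the members stayed between 0.0785 and 0.215. The difference in share was 0.836 percentage points without the 3 members with a 0. Of the region's longer RNAs 2 were called, 1 with limma, 1 to 4 leaving out single libraries (4 without DF1, 1 without CM3, CF2 or DF2) and 1 without CM3, CF1 and CF2. Dio3 lost its call under 5 of 17 alternatives. The cause of these shifts was not tested. The ratio of the 5p to the 3p arm, planned as a test, could not be run, since 31 of 659 known names had both arms listed and among members miR-485 alone. Intervals for single counts are not given, and at 7 to 29 reads miR-299b-3p is too shallow for a small change to be seen.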
